A study of Mus musculus with 2 samples.

Results

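The BCL2 family decides whether a cell opens its mitochondria and dies. Its 10 members described here are the anti-apoptotic genes Bcl2, Bcl2l1 and Mcl1, the effectors Bax, Bak1 and Bok, and the BH3-only genes Bcl2l11, Bid, Bbc3 and Bmf. They were chosen by symbol, and they are 10 of the 43346 mouse genes in the tables, all of them found. Their RNA was measured by total RNA sequencing of limbs from healthy B6NCrl mouse embryos aged 15.5 days. The series has 1 group with 2 biological replicates, each a pool of male and female embryos, 78 in replicate 1 and 62 in replicate 2. The labels name no mutation or treatment and do not say whether forelimbs or hindlimbs were taken. With pooled embryos the spread between single embryos cannot be seen, and with 1 group no condition can be compared, so levels and shares are described without a p-value.

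Anti-apoptotic members hold Bax and Bak1 in check by binding them, and the BH3-only proteins release that hold or switch Bax and Bak1 on. Activated Bax and Bak1 then form pores in the outer mitochondrial membrane, cytochrome c leaks out, and Apaf1 and caspase 9 start the caspase cascade. In the limb this route is known from the death of the cells between the digits: mice that lack Bax and Bak1, or Bcl2l11 and Bmf, keep webs of skin between their toes.

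What joins the 10 genes is the BH3 region, the short helix by which members grip each other, so its coding sequence is shown for each. The capitals mark the 18 bases that match the searched pattern: a leucine codon, 3 codons of any kind, a glycine or alanine codon and an aspartate codon, read in frame. Lower case gives 12 bases on each side. The sequences are the coding strand of GENCODE M21 transcripts on GRCm38, the build of the deposited tables.
Bcl2, chr1:106712572-106712613, minus strand: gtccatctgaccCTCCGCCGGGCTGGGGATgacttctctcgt
Bcl2l1, chr2:152829694-152829735, minus strand: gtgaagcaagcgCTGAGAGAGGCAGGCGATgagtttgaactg
Mcl1, chr3:95659424-95659465, plus strand: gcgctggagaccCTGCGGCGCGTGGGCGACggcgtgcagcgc
Bax, chr7:45465994-45466035, minus strand: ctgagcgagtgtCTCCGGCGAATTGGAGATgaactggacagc
Bak1, chr17:27022528-27022569, minus strand: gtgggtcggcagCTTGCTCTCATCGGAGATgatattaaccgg
Bok, chr1:93686645-93689173, plus strand, across an intron: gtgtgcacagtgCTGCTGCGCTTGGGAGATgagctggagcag
Bcl2l11, chr2:128147138-128147179, plus strand: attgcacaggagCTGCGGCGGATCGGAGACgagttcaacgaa
Bid, chr6:120897286-120897327, minus strand: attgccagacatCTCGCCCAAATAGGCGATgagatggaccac
Bbc3, chr7:16313761-16313802, plus strand: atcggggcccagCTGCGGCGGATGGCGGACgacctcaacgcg
Bmf, chr2:118545097-118545138, minus strand: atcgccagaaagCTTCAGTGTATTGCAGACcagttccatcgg

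The pattern occurred once in the main coding form of each member. The fifth codon of the core was glycine in 8 members and alanine in 2, Bmf and Bbc3. The 2 most alike cores were those of Bcl2l11 and Bbc3, which differed at 3 of 18 bases, and the 2 least alike were those of Bcl2l1 and Bmf, at 13 of 18. The stretch lay within 1 exon in 9 members and was split between exons 2 and 3 in Bok. A second pattern, the codons of the BH1 region that forms part of the binding groove (TGG, a glycine codon, then an arginine or lysine codon), was in the main form of 6 of 6 anti-apoptotic and effector genes and 0 of 4 BH3-only genes. Such short patterns are common by themselves. Among 5749 protein-coding genes with coding sequences of 192 to 331 codons, 13.0% held the BH3 pattern, 2.49% the BH1 pattern and 0.539% both. A match describes the letters and is not evidence of binding.

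All 10 members were detected in both pools. Expected counts, which are estimated read counts, came to 35104685 for replicate 1 and 41757268 for replicate 2. These totals include spike-in control sequences, at 2.28% and 2.26%, and counts scaled to library size use them. The members had 145.91 to 4045 expected counts in replicate 1 and 183 to 4809 in replicate 2. In TPM, which divides counts by transcript length and scales each library to the same total, 10 of 10 members reached 1 TPM in both libraries, against 34.6% of all genes and 62.7% of 21474 protein-coding genes. At 10 TPM it was 7 of 10 members, against 21.3% and 41.3%. A low level in a tissue sample can come from few cells or from little RNA per cell, and these cannot be told apart.

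The order of the mean levels ran from Bax and Bcl2l1 through Bok, Mcl1, Bcl2, Bcl2l11 and Bid to Bbc3, Bmf and Bak1. Bok and Mcl1 overlapped between the pools, as did Bcl2l11 and Bid, and Bmf and Bak1, so their order is not settled. The other 6 neighbouring pairs did not overlap, although Bcl2 (at least 16.28 TPM) and Bcl2l11 (at most 16.15 TPM) nearly did. With posterior mean TPM, 2 of the 6 pairs overlapped: Bcl2 had 15.88 and 16.4 and Bcl2l11 13.7 and 16.31, and Bbc3 had 5.96 and 5.33 and Bmf 4.67 and 5.98. Bax and Bcl2l1 together made up 60.3% of the members' summed TPM in replicate 1 and 58.6% in replicate 2.

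**Figure D1:**
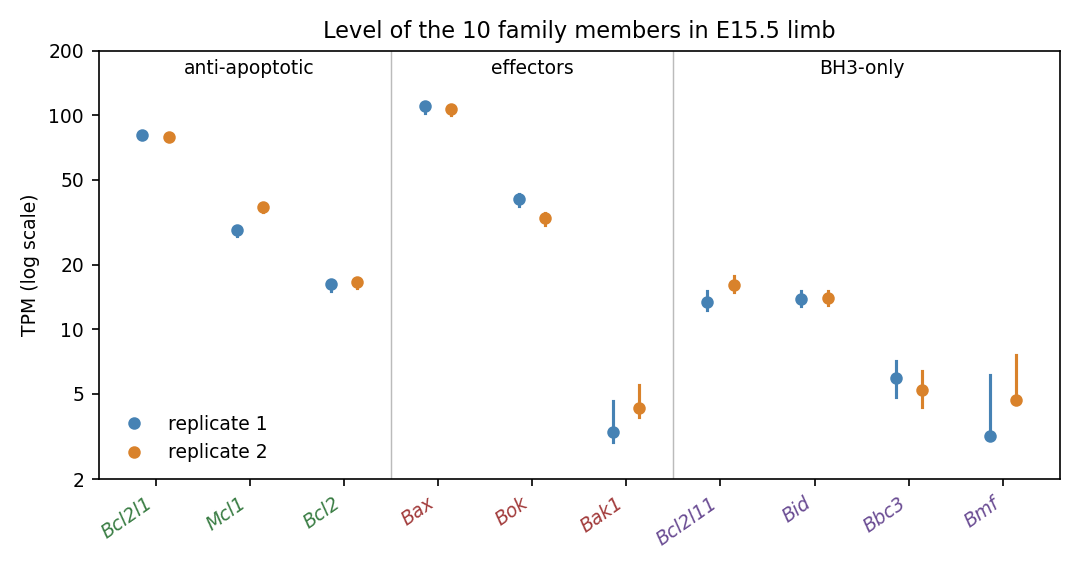
TPM of the 10 members (log scale) in replicate 1 (blue) and replicate 2 (orange), grouped by role. Points are the deposited TPM and bars the deposited interval of each library. Bax and Bcl2l1 stand highest, and Bak1 and Bmf lowest at under 5 TPM.

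Of the anti-apoptotic genes, Bcl2l1 was the most abundant. It encodes Bcl-xL, a guardian of the mitochondrial membrane (ENSMUSG00000007659.14, GRCm38 chromosome 2, 152780668 to 152831728, minus strand). Its level was 81.28 TPM in replicate 1 against 79.46 TPM in replicate 2, a mean of 80.4 ± 1.29 (SD, n = 2). The pools were level for this gene, on 4045 and 4809 expected counts. It stood above 86.1% and 86.3% of the 15571 genes with a mean of at least 1 TPM.

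Mcl1 encodes a short-lived guardian that is made and destroyed quickly (ENSMUSG00000038612.12, chromosome 3, 95658788 to 95663176, plus strand). It had 29.19 TPM in replicate 1 against 37.27 TPM in replicate 2, a mean of 33.2 ± 5.71 (SD, n = 2). Replicate 2 was the higher by 1.28-fold, and the deposited intervals, 27.4 to 29.8 TPM and 35.43 to 38.004 TPM, did not overlap. An interval covers counting and read assignment within 1 library and not the spread between pools.

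Bcl2, the founding guardian of the family, was the least abundant of the 3 (ENSMUSG00000057329.7, chromosome 1, 106538178 to 106714274, minus strand). Its 16.28 and 16.73 TPM gave a mean of 16.5 ± 0.318 (SD, n = 2), and the pools hardly differed. Within a library, Bcl2l1 was 4.99 and 4.75 times as abundant as Bcl2 per length. Mcl1 had 0.359 and 0.469 of the level of Bcl2l1, and 1.79 and 2.23 times that of Bcl2.

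Among the effectors Bax was the highest of all 10 members (ENSMUSG00000003873.10, chromosome 7, 45461697 to 45466898, minus strand). It moves from the cytosol to mitochondria when activated. Its level was 110.02 TPM in replicate 1 against 106.52 TPM in replicate 2, a mean of 108.3 ± 2.47 (SD, n = 2), and the pools were again level. An overlapping gene model on the same strand, Gm45808, shares 192 exon bases with Bax and has no row of its own in the tables used here, so reads from the 2 were not separated.

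Bak1, which sits in the mitochondrial membrane already before death signals, was at the other end of the order (ENSMUSG00000057789.9, chromosome 17, 27019810 to 27029009, minus strand). It had 3.31 TPM in replicate 1 against 4.32 TPM in replicate 2, a mean of 3.82 ± 0.714 (SD, n = 2), on 145.91 and 240 expected counts. Its deposited intervals, 2.97 to 4.63 TPM and 3.92 to 5.503 TPM, overlapped. Bax was 33.2 and 24.7 times as abundant as Bak1 per length. The Bak1 level is uncertain because 437 of its exon bases overlap Ggnbp1 on the opposite strand, which had 4.21 and 5.75 TPM. Another gene model named Ggnbp1 on that strand shares 177 exon bases with Bak1 and has no row of its own. Whether counting used strand is not given in the sources used here.

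Bok, an effector that is less studied and is controlled by protein turnover, had 40.86 TPM in replicate 1 against 33.24 TPM in replicate 2 (ENSMUSG00000026278.10, chromosome 1, 93685660 to 93695764, plus strand). The mean was 37.0 ± 5.39 (SD, n = 2). Replicate 1 was the higher by 1.23-fold, and the intervals, 37.7 to 42.7 TPM and 30.9 to 35.038 TPM, did not overlap. Bok was 12.3 and 7.69 times as abundant as Bak1, and Bax was 2.69 and 3.20 times as abundant as Bok.

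The 4 BH3-only members lay lower as a group, from 3.17 to 16.15 TPM. Bcl2l11 encodes Bim, which can bind every anti-apoptotic member and activate effectors (ENSMUSG00000027381.12, chromosome 2, 128126038 to 128162547, plus strand). It had 13.47 and 16.15 TPM, a mean of 14.8 ± 1.90 (SD, n = 2). Replicate 2 was higher, but the deposited intervals (12.4 to 15.2 TPM and 14.995 to 17.7 TPM) overlapped slightly.

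Bid, which caspase 8 cuts into its active form, had 13.87 and 13.97 TPM, a mean of 13.9 ± 0.0707 (SD, n = 2) (ENSMUSG00000004446.8, chromosome 6, 120891930 to 120916853, minus strand). This was the smallest spread of the 10 members. Bid over Bcl2l11 was 1.03 in replicate 1 and 0.865 in replicate 2, so the order of these genes differed between the pools. Bid shares 628 exon bases with Bcl2l13 on the opposite strand, at 17.17 and 16.26 TPM.

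Bbc3 encodes Puma, a target of p53 (ENSMUSG00000002083.8, chromosome 7, 16308393 to 16318205, plus strand). It had 5.92 TPM in replicate 1 against 5.23 TPM in replicate 2, a mean of 5.58 ± 0.488 (SD, n = 2), on 162 and 183 expected counts. The intervals, 4.86 to 7.10 TPM and 4.36 to 6.38 TPM, overlapped widely.

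Bmf, known to be held on actin-based motors until it is released, had 3.17 TPM in replicate 1 against 4.68 TPM in replicate 2, a mean of 3.92 ± 1.07 (SD, n = 2) (ENSMUSG00000040093.11, chromosome 2, 118528757 to 118549687, minus strand). Replicate 2 was the higher, with overlapping intervals of 3.36 to 6.13 TPM and 4.51 to 7.58 TPM. The TPM of replicate 1 lies under its own interval, because the interval belongs to the posterior mean, which was 4.67 and 5.98 TPM for this gene. The Bmf level therefore depends on the estimator more than that of the other members does.

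Summed by role, the anti-apoptotic members had 126.75 and 133.46 TPM, and the effectors 154.19 and 144.08 TPM. The 4 BH3-only members had 36.43 and 40.03 TPM. Family genes beyond the 10 are not in these sums, among them the BH3-only gene Bad with 73.32 and 68.01 TPM. The effector sum was mostly Bax and the anti-apoptotic sum mostly Bcl2l1. The anti-apoptotic sum was 0.822 of the effector sum in replicate 1 and 0.926 in replicate 2. The 4 BH3-only members had 0.287 and 0.300 of the anti-apoptotic sum. These are ratios of RNA per length, and they carry no information on protein or on how tightly the proteins bind. Without the division by length the first of them turns: the mean log2 ratio of anti-apoptotic to effector RNA was -0.20 in TPM and 1.45 in counts. Bax is short and all 3 anti-apoptotic genes are longer. In replicate 1 the effective length was 770 bases for Bax, 2231 for Bcl2l1, 3386 for Mcl1 and 5570 for Bcl2.

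The difference between the pools was taken as log2 of replicate 2 over replicate 1 on TPM + 0.1, centred on the median gene with a mean of at least 1 TPM. This scale understates the fold of genes near 0. Bmf had the largest value among the members, 0.57, followed by Bak1 at 0.40, Mcl1 at 0.37 and Bcl2l11 at 0.28, all higher in replicate 2. On the other side were Bok at -0.27, Bbc3 at -0.15, Bax at -0.02 and Bcl2l1 at -0.01. Bcl2 and Bid were near 0, at 0.06 and 0.03. In all, 6 members were higher in replicate 2 and 4 in replicate 1, with a median of 0.05.

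No member passed 1.5-fold: 0 of 10, where 8.00% of the 15571 genes did (4.87% higher in replicate 1 and 3.12% higher in replicate 2). At 2-fold it was 0 of 10 against 3.63% (2.47% higher in replicate 1 and 1.16% higher in replicate 2). With this background, 0 of 10 is close to what the whole table gives and is not a result about the members. The deposited intervals did not overlap for 2 of 10 members, Bok and Mcl1, against 23.2% of the 15571 genes (13.6% higher in replicate 1 and 9.63% higher in replicate 2). The typical size of the difference was 0.21 (median of absolute log2 values) for the members and 0.13 for all 15571 genes. Bmf lay just under the 1.5-fold line, at 1.48-fold in TPM and 1.30-fold in counts scaled to library size, and its effective length was 3908 bases in replicate 1 and 3358 in replicate 2.

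**Figure D2:**
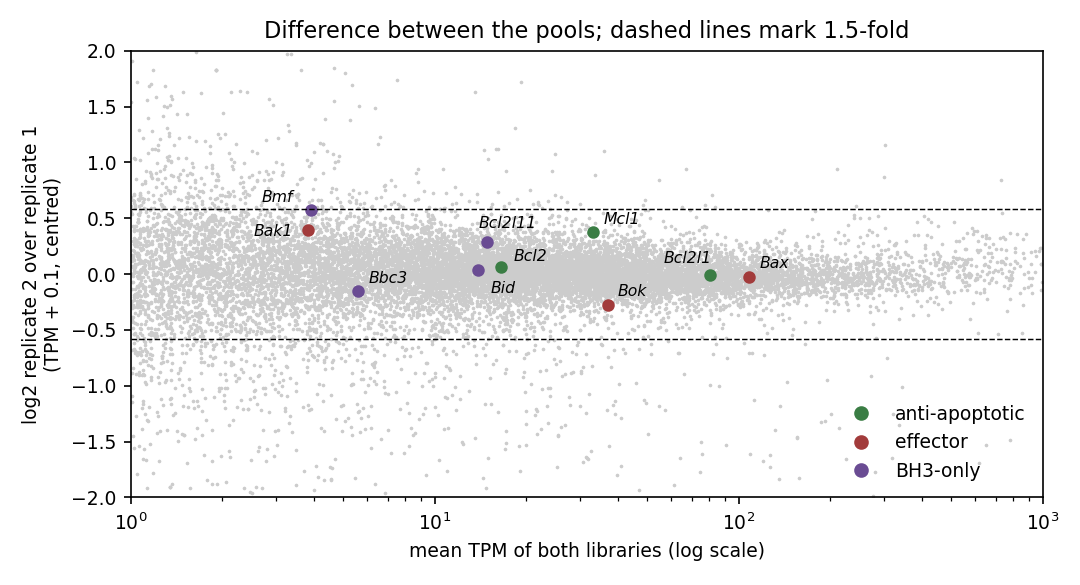
Log2 of replicate 2 over replicate 1 (TPM + 0.1, centred) against mean TPM (log scale) for genes with a mean of at least 1 TPM (grey), with the 10 members coloured by role and dashed lines at 1.5-fold. All members lie between the lines, from -0.27 for Bok to 0.57 for Bmf; 267 of the 15571 genes fall outside the axes.

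The pools differed in the marker RNA of some cell types. As with low levels, the number of cells and the RNA per cell cannot be told apart here. The 7 listed limb mesenchyme markers, which include the limb identity genes Pitx1, Tbx4 and Tbx5, were all at 10 TPM or more in both libraries. Of the 7, 2 were higher in replicate 1 and 5 in replicate 2, with a median of 0.54 log2, the value of Tbx4. Of these, 3 passed 1.5-fold toward replicate 2: Pitx1 (19.11 and 30.78 TPM), Hoxd13 (17.56 and 26.62 TPM) and Twist1 (23.76 and 36.2 TPM). The hindlimb gene Tbx4 had 12.59 and 18.02 TPM, and the forelimb gene Tbx5 had 16.04 and 12.02 TPM. The remaining mesenchyme markers differed less, Prrx1 with 86.3 and 94.21 TPM and Msx1 with 130.69 and 112.58 TPM. The summed level of 7 skeletal muscle markers was 5745 TPM in replicate 1 against 1712 TPM in replicate 2, with 7 of 7 higher in replicate 1, and that of 5 bone markers was 748 and 391 TPM, with 5 of 5 higher in replicate 1. The 4 liver markers summed to 9.76 and 45.2 TPM, with 4 of 4 higher in replicate 2. Red cell markers summed to 16538 and 17022 TPM, while of 4 lymphocyte markers only Ptprc reached 1 TPM and Cd3e had 0.03 and 0.11 TPM. Of the 12 marker lists, those for cartilage, epidermis, macrophages, mast cells, endothelium, and neurons with Schwann cells had 0 genes over 1.5-fold. Of all 15571 genes, 8.00% passed that line. Within it, 5 of 5 cartilage markers were higher in replicate 2 and 4 of 4 endothelial markers in replicate 1. The part of these cell types, or of the kind of limb, in the differences of Mcl1, Bok, Bmf and the other members was not tested.

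Several members are known for splice forms that differ in their action, and the transcript tables hold 45 transcripts of the 10 genes, 11 of them at 0 in both libraries. Bcl2l11 makes the Bim forms called EL, L and S. They part after the same bases, shown with 12 bases before the joint in lower case and 12 after it in capitals.
Bcl2l11-205, EL: cagaaccgcaagGTAATCCCGACG
Bcl2l11-203, L: cagaaccgcaagACAGGAGCCCGG
Bcl2l11-201, S: cagaaccgcaagCTTCCATACGAC
The EL form reads on for 168 bases (chr2:128128757-128128924), the stretch that holds docking and phosphorylation sites for ERK kinase. The L form splices these bases out, and the S form skips further to the exon with the BH3 codons. They encode 196, 140 and 110 codons.

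EL was the main Bcl2l11 form in both pools. It had 7.33 TPM in replicate 1 against 8.92 TPM in replicate 2, which is 54.4% and 55.2% of the gene's TPM. L had 0.77 and 0.76 TPM, 5.72% and 4.71%, and S had 1.22 and 0.91 TPM, 9.06% and 5.63%. Neither L nor S is well fixed by these reads, since the interval of L in replicate 1 reached from nearly 0 to 1.55 TPM and that of S from 0.306 to 2.17 TPM. A form of 91 codons without the BH3 codons, Bcl2l11-202, had 1.19 and 1.77 TPM. The 3 transcripts without a coding sequence took 21.97% and 23.5%. Counted over coding transcripts alone, EL had 69.7% and 72.2%. The forms also differ after the stop codon, by 4218 bases in EL, 2899 in L and 1929 in S, so reads in these ends weigh in the split as well as reads at the joints.

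Most Bcl2l1 TPM was assigned to transcripts of the long, anti-apoptotic form. Bcl2l1-201 and Bcl2l1-202 encode the same 233 codons from different first exons, and together they had 71.3 TPM in replicate 1 against 68.8 TPM in replicate 2, 87.7% and 86.6% of the gene. Bcl2l1-201 was the larger, at 52.67 and 49.91 TPM against 18.60 and 18.89 TPM, with intervals that did not overlap within either library. Transcripts that read from exon 2 into the intron (209 codons) took 4.44% and 4.81%, and incomplete and non-coding models the remaining 7.89% and 8.62%. The short, death-promoting form known as Bcl-xS, made with an earlier donor site in exon 2, is not among the 9 Bcl2l1 transcripts of the tables, so neither its level nor the share of long against short form was measured.

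For Mcl1, all reads went to the full form of 331 codons, Mcl1-201, at 29.19 and 37.27 TPM. Mcl1-202, which removes an intron within exon 1 and has 285 codons, was listed at 0 expected counts in both libraries. A form that skips exon 2, known in human cells as the death-promoting short form, is not among the 2 listed transcripts and was not measured.

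**Figure D3:**
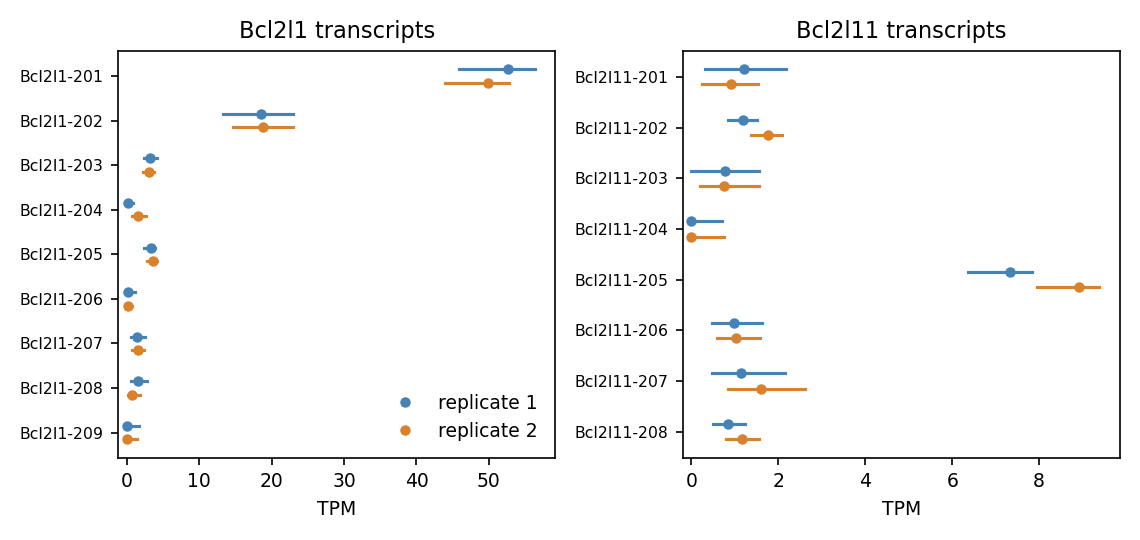
TPM of each listed Bcl2l1 transcript (left) and Bcl2l11 transcript (right) in replicate 1 (blue) and replicate 2 (orange), with bars for the deposited interval. Bcl2l1-201 and Bcl2l11-205 lead in both libraries, at 52.67 and 49.91 TPM and at 7.33 and 8.92 TPM.

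Across the family, each gene's TPM was divided by the annotated class of its transcripts, and the share in transcripts annotated as protein-coding that hold the BH3 codons is given first. For Bax, with 1 listed transcript, and for Mcl1 and Bcl2, whose 2 listed transcripts are both of this class, a share of 100% is fixed by the listed models and is no measurement. In Bok it was 100% in both libraries, and in Bcl2l1 98.1% and 99.1%. The effector Bak1 was the lowest, with 25.2% and 39.6%, the rest being a transcript annotated for decay. The decay transcripts of Bak1 and Bid also hold the BH3 codons, so for these genes the share describes the annotation for decay and not the presence of those codons. Bbc3 had 47.7% and 55.0%, Bid 64.2% and 47.3%, Bcl2l11 69.2% and 65.6%, and Bmf 83.3% and 70.1%. The pools differed by over 10 percentage points in Bak1, Bid and Bmf, but for Bmf this ended with posterior mean TPM, which gave 54.5% and 53.3%. For Bak1 and Bid the deposited intervals of the protein-coding transcript overlapped between the pools. They were 0.386 to 1.48 and 1.06 to 2.53 TPM for Bak1-202, and 6.41 to 10.7 and 4.78 to 8.15 TPM for Bid-201. Bak1-202 had only 42.39 and 106.69 expected counts. In TPM of such protein-coding transcripts, Bak1 came to 0.83 and 1.71, Bbc3 to 2.82 and 2.88, and Bmf to 2.64 and 3.28.

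**Figure D4:**
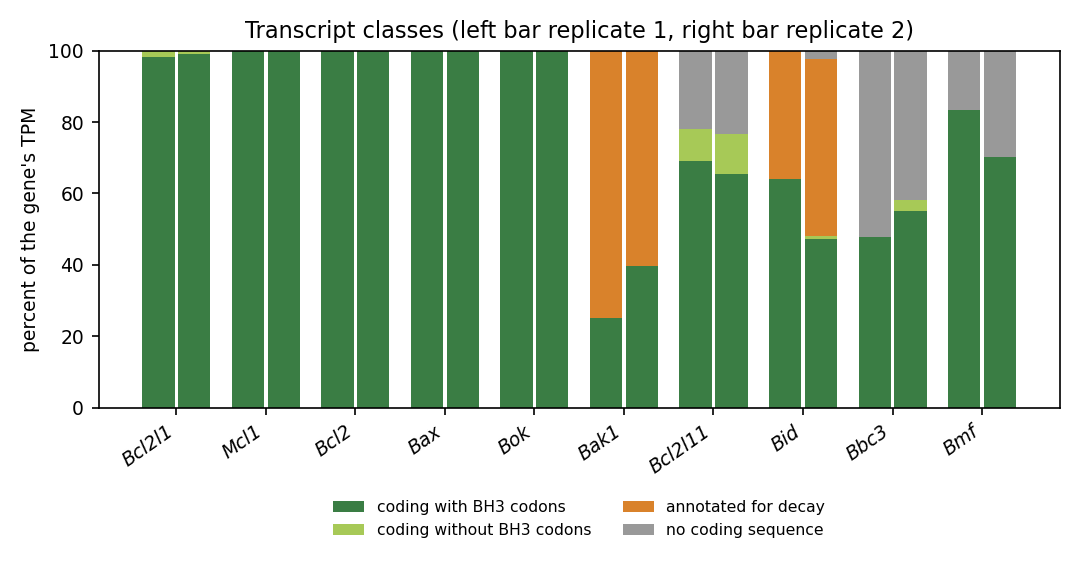
Percent of each member's TPM in 4 annotated classes of transcript, for replicate 1 (left bar) and replicate 2 (right bar). The anti-apoptotic genes, Bax and Bok are green almost to the top (for Bax, Mcl1 and Bcl2 the listed models allow nothing else), while Bak1 is mostly a transcript annotated for decay, 74.8% and 60.4%.

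The rest of the pathway was described from 5 lists. Among all 43346 genes, 15571 had a mean of at least 1 TPM. In the rest of the BCL2 family, 9 of 15 genes had a mean of at least 1 TPM, 5 higher in replicate 1 and 4 in replicate 2. Of the 9, 0 passed 1.5-fold, against 8.00% of the 15571 genes. Bnip3l (411.16 and 375.24 TPM) and Bnip3 (110.03 and 113.53 TPM), which act in mitochondrial turnover, and Bad (73.32 and 68.01 TPM), a BH3-only partner of Bcl-xL, were the highest. Bad was thus above each of the 4 BH3-only members in both libraries, and above their sum of 36.43 and 40.03 TPM. Hrk (0.08 and 0.03 TPM) and Bcl2l10 (0 counts in both libraries, which allows up to 3 counts, or 0.0855 and 0.0718 CPM, counts scaled to library size) were the lowest. Bcl2a1a, Bcl2a1b and Bcl2a1d are near-identical copies among which reads cannot be divided with certainty.

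Downstream of the members, all 12 genes of the apoptosome and caspase list had at least 10 TPM in both libraries. Among all genes 21.3% did, and among protein-coding genes 41.3%. Of the 12, 6 were higher in each pool. Diablo, which is released with cytochrome c and frees caspases, led with 83.77 and 78.44 TPM, and the protease Htra2 had 57.7 and 50.76 TPM. The lowest were the initiator Casp9 (12.47 and 11.03 TPM) and Endog (12.48 and 14.04 TPM), so Casp9 RNA was below that of the 7 highest members in both pools. Of the caspase inhibitors, 6 of 10 had a mean of at least 1 TPM, 2 higher in replicate 1 and 4 in replicate 2. Birc5, which also serves cell division, had 202.64 and 208.7 TPM, Birc6 67.52 and 68.75 TPM and Cflar 33.38 and 33.51 TPM. Naip1 (0.03 and 0.02 TPM) and Naip6 (0.12 and 0.06 TPM) were lowest, and the Naip genes are copies of each other.

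On the side of the inputs, 6 of 9 death receptor genes had a mean of at least 1 TPM, 4 higher in replicate 1 and 2 in replicate 2. The receptor Tnfrsf1a led with 83.52 and 78.66 TPM, followed by its adaptors Tradd (31.94 and 25.2 TPM) and Ripk1 (14.12 and 14.68 TPM). The ligand Fasl had 0.02 and 0 TPM and Tnfsf10 had 0.08 and 0.13 TPM. All 18 upstream regulators had a mean of at least 1 TPM, 9 higher in each pool. Dynll1, a dynein light chain that binds Bim, had 1415.29 and 1487.59 TPM, Ywhaz, a 14-3-3 protein that holds phosphorylated Bad, 630.63 and 611.55 TPM, and the mitochondrial channel Vdac1 241.6 and 228.81 TPM. Trp73 (3.31 and 2.76 TPM) and Foxo1 (4.25 and 4.57 TPM) were the lowest. In the 5 lists 0 of 9, 12, 6, 6 and 18 genes with a mean of at least 1 TPM passed 1.5-fold. Of all 15571 genes with such a mean, 8.00% did. The list medians lay between -0.09 and 0.04 log2, beside 0.05 for the members and 0 for all genes.

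**Figure D5:**
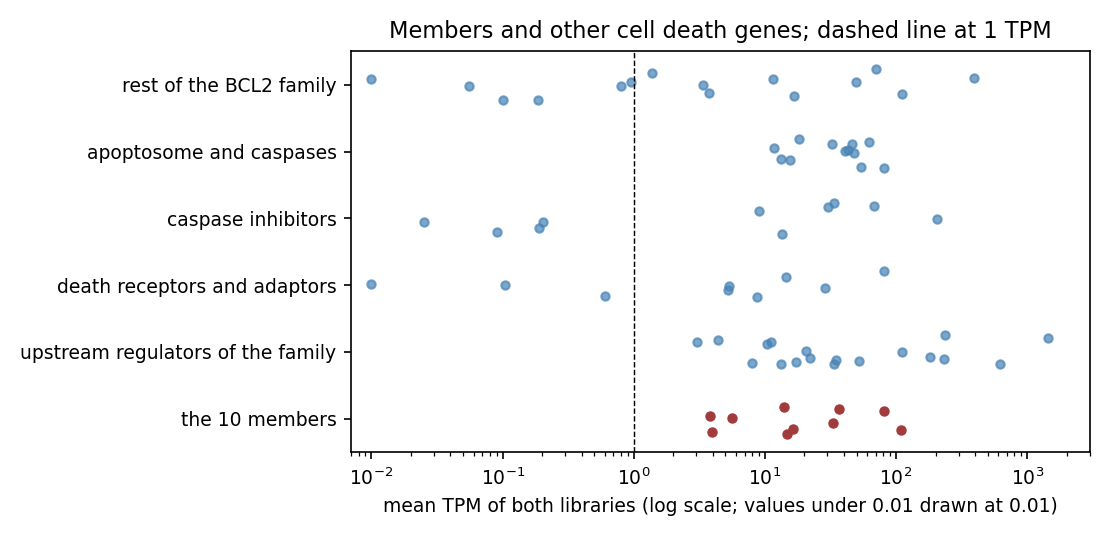
Mean TPM of both libraries (log scale) for each gene of the 5 pathway lists (blue) and the 10 members (red), with a dashed line at 1 TPM. The apoptosome genes, the upstream regulators and the members all lie to the right of the line, while the other 3 lists also hold genes left of it.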

How the data were processed

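Gene and transcript tables of both libraries were used. They are on mm10 per the labels, with GENCODE M4 per the deposited sample records; aligner, counter and use of strand are not given in the sources. Per the file headers they hold expected counts (estimated counts, not always whole), TPM, posterior mean TPM, interval bounds and FPKM, the last used as an alternative only. In the transcript tables a deposited percent column gives shares within a gene, and shares recomputed from TPM lay within 0.058 points of it. Symbols, coordinates and sequences came from GENCODE M21 on GRCm38, matched on the identifier without version. For the 10 members, 44 of 45 transcripts matched, 41 at the same length.

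Levels are the mean ± SD of TPM over 2 libraries (n = 2). Neighbours in the order were called apart where their values did not overlap over both libraries. Pool differences are log2 of TPM + 0.1, centred on the median of genes with a mean of at least 1 TPM (a shift of -0.02). No test was made. The members and lists were chosen with earlier results of these data known. Named are the 10 members, the 3 highest and 2 lowest of each list by mean TPM, and any over 1.5-fold apart at a mean of at least 1 TPM (1 gene the rule names is not reported here); Bcl2a1a, Bcl2a1b and Bcl2a1d, the marker genes and the genes overlapping members are named beside these. With 2 libraries no genes of like pattern were sought. Alternatives were another pseudocount, no centring, no filter, posterior means, FPKM, counts scaled with edgeR 4.0.16 TMM or DESeq2 1.42.0 size factors (expected counts rounded, R 4.3.3), counts not divided by length, and each library alone. The rest was done in Python 3.11.15 (pandas 2.3.3, numpy 2.4.6, matplotlib 3.10.9). The calculation of the pool difference was run on simulated data with larger planted changes in well-counted genes, called at 2-fold. That run does not check the 1.5-fold line or genes with few counts. Each library began with 10 ng of RNA over 200 nt, and the limits for 0 counts cover counting error only.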

Additional observations from a re-analysis of the deposited data

How the results depend on the processing

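All 10 members kept the sign of their pool difference in 7 of 7 other settings, and 0 passed 1.5-fold in any of them. Counts not divided by length turned 3 ratios: anti-apoptotic over effector genes became 1.45 log2, Bax over Bcl2 -0.12 (2.71 in TPM) and Bbc3 over Bmf -0.997 (0.53 in TPM). Bid over Bcl2l11 was 0.042 log2 in replicate 1 alone and -0.21 in replicate 2 alone. The log2 ratio of BH3-only to anti-apoptotic members was -1.77 in TPM, -1.90 in counts and -1.68 in posterior mean TPM. With posterior means the shares were 52.4% for Bcl2l11 EL, 85.8% for Bcl2l1 and 99.3% for Mcl1, against 54.8%, 87.1% and 100% in TPM, and Bmf had 5.33 TPM, with 54.5% and 53.3% of it in protein-coding transcripts against 83.3% and 70.1%. In TPM over coding transcripts alone, Bcl2l11 EL had 71.0%. The median gene lay at 0.001 log2 with TMM and 0.002 with DESeq2 size factors. Without centring it lay at -0.02, which is the shift that centring takes out. With another pseudocount, posterior means and FPKM it is 0 by the centring itself. No paired analysis was possible because there is 1 group.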

Other observations

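These splice forms were chosen after their values were seen. Bcl2 and Bcl2l1 share a splice arrangement: in each, the exon with the BH3 codons ends within the codons of the BH2 region, another part of the binding groove, and a listed form reads on into the intron instead. The joints are shown with 12 bases before in lower case and 12 after in capitals, and the 12 bases before it differ between the genes at 1 position.
Bcl2-201, spliced: aacggaggctggGATGCCTTTGTG
Bcl2-202, read into the intron: aacggaggctggGTAGGTGCATGT
Bcl2l1-201, spliced: aacggcggctggGACACTTTTGTG
Bcl2l1-205, read into the intron: aacggcggctggGTAAGAACCACG
In Bcl2 the form read into the intron, Bcl2-202, had 5.69 TPM in replicate 1 against 6.47 TPM in replicate 2, 34.97% and 38.7% of the gene. In Bcl2l1 the forms of this kind had 3.61 and 3.82 TPM, 4.44% and 4.81%. Bcl2-202 holds 1966 bases inside an intron of 168906 bases, and reads of unspliced RNA there would count toward it; that part was not tested.

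Most Bak1 RNA was assigned to Bak1-201, a transcript annotated for decay that holds a small exon of 20 bases (chr17:27021663-27021682), shown in capitals.
Bak1-202, without the small exon: gatcgcctccagCCTATTTAAGAG
Bak1-201, with the small exon: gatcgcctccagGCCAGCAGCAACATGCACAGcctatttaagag
In the first sequence the capitals are the 12 bases after the joint. Bak1-201 had 2.47 and 2.61 TPM and Bak1-202, which codes for all 209 codons, 0.83 and 1.71 TPM. The deposited intervals of the 2 transcripts did not overlap in replicate 1 and overlapped in replicate 2. Their first exons also differ, 168 bases in Bak1-201 and 599 in Bak1-202, so the split rests on more than the small exon. The overlap with Ggnbp1 on the opposite strand is unequal too, 348 bases in Bak1-201 and 437 in Bak1-202. Bak1-202 alone shares 177 bases with the other Ggnbp1 model.

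Bid-204, annotated for decay with the same 195 codons as Bid-201, had 4.97 and 6.93 TPM, 35.8% and 49.6% of the gene. Its last exon of 628 bases lies wholly within Bcl2l13 exons on the opposite strand. Bbc3-203, a model without a coding sequence that keeps 110 bases of an intron, had 3.09 and 2.19 TPM, 52.3% and 41.8% of the gene, on 53.98 and 46.60 expected counts.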
